A study of Mus musculus with 6 samples.

Results

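The genes described are 3 receptors and 4 ligands of the Notch pathway: Notch1, Notch2, Notch3, Dll1, Dll3, Jag1 and Jag2. They were followed in mouse embryonic stem (ES) cells on the way to paraxial mesoderm, the tissue that forms the somites. Every array probe set annotated to 1 of these symbols was taken, which gave 13 of the 45101 probe sets, 6 for the receptors and 7 for the ligands. Dll1 and Dll3 had 1 probe set each and the other 5 genes had several.

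E14 ES cells of the 129P2/OlaHsd background that carried an Msgn1-Venus reporter, Msgn1RepV, grew as a monolayer. Cells sorted as Venus-positive after 4 days were compared with cells sorted after 3 days, with 3 arrays per day that the labels call biological replicates. The medium on both days held 15% serum, 0.5% DMSO, 10 ng/mL R-spondin3, which potentiates Wnt signalling, and 200 ng/mL Noggin, which blocks BMP ligands. No unsorted or Venus-negative sample was compared, and all cells came from this reporter line, so the comparison is between the days within 1 gate.

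Notch receptors are membrane proteins that bind Delta-like or Jagged ligands on a neighbouring cell. Binding exposes the receptor to cleavage, first by a metalloprotease and then by gamma-secretase, and the freed intracellular domain joins the DNA-binding protein RBPJ to switch on genes of the Hes and Hey families. In the presomitic mesoderm of the mouse embryo, Notch1 and the ligands Dll1 and Dll3 are part of the oscillating system that sets the pace and the borders of the somites.

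The deposited values were linear MAS5 signals, in arbitrary units, and are given as signal below. A level of 13.45, the 40th percentile of all probe sets, was used as the limit for testing, since detection calls were not used here. The trimmed mean signal of the arrays ran from 160.4 to 162.1. Day 4 replicate 1 stood apart in the ratio of 3′ to 5′ signal of its control probe sets, a sign of shortened or incompletely copied RNA, with a Gapdh ratio of 14.0, where the remaining 5 arrays gave 2.43 to 3.19, and an Actb ratio of 6.72, where they gave 2.77 to 3.84 (exact 2-sided permutation p = 0.3 and 0.2 between days, with 0.1 the smallest that 3 against 3 arrays allow). Results that rest on this array are therefore also given without it. The summed signal of 8 presomitic markers, Dll1 and Dll3 among them, was 4854 to 5063 at day 4 and 3217 to 3476 at day 3, with 1 of the 8 called higher and 1 lower. The gene called higher was Rspo3 (2695 ± 257 at day 4, 1275 ± 39.3 at day 3), and most of the difference between these sums came from it. The one called lower was Msgn1, the gene of the reporter, with signals of 25.2, 36.2 and 38.3 at day 4 and 83.0, 57.2 and 83.4 at day 3. Tbx6, which did not pass, averaged 124 ± 29.5 at day 4 and 132 ± 6.99 at day 3 (SD, n = 3). The sum of 8 markers of the anterior presomitic mesoderm and somite, Mesp2 among them, was 1194 to 1529 at day 4 and 402 to 441 at day 3. Of the 6 tested, 5 were called higher, against 11.5% of all genes tested. The summed signal of 10 endothelial markers was 512 to 697 at day 4 and 339 to 406 at day 3, and most of it came from Kdr (603, 454 and 433 at day 4, against 207, 239 and 203 at day 3), while 7 of the 10, among them Pecam1, Tek and Tie1, averaged below the testing limit. Of the 3 tested, Kdr was called higher, Sox17 was called lower (20.2 ± 10.8 at day 4, 72.2 ± 22.9 at day 3) and Cdh5 did not pass (change -0.78 ± 0.40). The summed signal of 9 neural markers was 37.0 to 45.5 at day 4 and 76.5 to 93.9 at day 3, and 8 of the 9 averaged below the limit. That of 8 cardiac markers was 705 to 752 at day 4 and 411 to 425 at day 3, and most of it came from Isl1. The part of these markers in the results below was not tested.

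The promoters of Notch3 and Notch1 are shown because these were the genes of the set called between the days. The Notch1 call was lost in 6 of 16 alternative fits. Each stretch runs from 250 bases before to 50 bases after the RefSeq start site on the GRCm38.p6 assembly, 5′ to 3′. Capitals mark the GC box, GGGCGG or its reverse complement.
Notch3 promoter, chr17:32166841-32167140, minus strand: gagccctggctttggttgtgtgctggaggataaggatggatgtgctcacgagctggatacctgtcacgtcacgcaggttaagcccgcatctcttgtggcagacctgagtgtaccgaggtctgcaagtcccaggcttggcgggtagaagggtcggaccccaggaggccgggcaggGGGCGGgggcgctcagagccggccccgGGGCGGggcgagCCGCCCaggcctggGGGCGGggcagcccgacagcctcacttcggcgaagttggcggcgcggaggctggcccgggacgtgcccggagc
Notch1 promoter, chr2:26503773-26504072, minus strand: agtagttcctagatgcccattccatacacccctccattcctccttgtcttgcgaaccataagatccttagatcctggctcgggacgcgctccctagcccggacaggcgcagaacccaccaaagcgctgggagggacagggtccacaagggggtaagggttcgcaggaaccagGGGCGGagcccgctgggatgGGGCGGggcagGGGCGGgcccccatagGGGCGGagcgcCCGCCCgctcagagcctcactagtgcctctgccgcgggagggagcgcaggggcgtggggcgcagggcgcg
The GC box was found 4 times in the Notch3 stretch and 5 times in the Notch1 stretch, and 35.7% of 32851 mouse promoter stretches of this length held it at least once. It was also in the stretches of Notch2 (7 times), Jag2 (5 times) and Dll3 (once), and not in those of Dll1, which has 2 start sites in the table, or Jag1. The RBPJ core TGGGAA, searched on both strands and present in 25.6% of all stretches, was in none of the 8 stretches of the 7 genes. Nor was the TATA box TATAAA (13.6% of all stretches) or the T-box half-site AGGTGTGA (1.28%). The G and C content was 70.0% for Notch3 and 68.3% for Notch1, against a median of 52.7% over all stretches (quartiles 45.7% and 61.7%). Among the genes not called, it was higher still for Notch2 (73%) and Jag2 (86%). It was lower for Dll1 (62.7% and 56.3% at its 2 start sites), Jag1 (55.7%) and Dll3 (52%). No promoter activity was measured on these arrays, and a motif match is only a description of the letters.

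Among the receptors, the signals of Notch3 and Notch1 were higher at day 4 than at day 3, and that of Notch2 did not pass the test. Notch3 rose 1.68-fold on its brighter probe set and 2.31-fold on its dimmer one. Notch1 rose 1.28-fold on its brighter probe set, a call lost in 6 of 16 alternative fits. None of the 4 ligand genes passed by limma, and 1 of them, Dll3, had an unadjusted p under 0.05. So did at least 22.2% of all genes tested, the share that passed after adjustment. Sorted cells were measured in bulk, so more cells of a type and more RNA per cell cannot be told apart.

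Notch3 encodes a receptor known for its role in vascular smooth muscle and also made in mesoderm and neural progenitors. Its brighter probe set, 1421965_s_at, read 932, 836 and 809 at day 4 and 556, 501 and 476 at day 3. Every day 4 array lay above every day 3 array, and the means were 859 ± 64.9 at day 4 and 511 ± 41.0 at day 3 (SD over 3 arrays a day, here and below). The change was 0.75 ± 0.10 on the log2 scale (SE; 95% interval 0.53 to 0.97; limma adjusted p = 0.000832 over all genes). The dimmer probe set, 1421964_at, was designed on the same transcript record and read 86.2, 89.2 and 109 at day 4 and 42.7, 37.6 and 42.4 at day 3. These groups did not overlap either. The change was 1.21 ± 0.17 (95% interval 0.83 to 1.59; limma adjusted p = 0.0018 over all probe sets), which is 0.46 larger on the log2 scale than that of the brighter probe set. This difference between the probe sets was not tested. Day 4 replicate 1 was the highest of its day on the brighter probe set and the lowest on the dimmer one. Without it the changes were 0.69 and 1.27.

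Notch1, the receptor that acts in somite formation in the mouse, read 1047, 836 and 936 at day 4 and 742, 741 and 708 at day 3 on its brighter probe set, 1418634_at. All day 4 arrays were above all day 3 arrays, and the day 3 arrays were close together (939.8 ± 105 at day 4, 730.3 ± 19.6 at day 3). The change was 0.36 ± 0.10 (95% interval 0.14 to 0.58; limma adjusted p = 0.0268 over all genes). With 1 array left out, 4 of 6 fits did not pass, those without any 1 of the day 3 arrays or without day 4 replicate 3 (limma adjusted p 0.0649 to 0.106). Without day 4 replicate 1 the call held, with a change of 0.28 (adjusted p = 0.0222). The dimmer probe set, 1418633_at, read 218, 113 and 124 at day 4 and 95.4, 94.2 and 72.8 at day 3. The days did not overlap here either, but day 4 replicate 1 lay further above its fellow day 4 arrays than these lay above day 3. The change of 0.74 ± 0.24 did not pass over all probe sets (95% interval 0.19 to 1.29; limma adjusted p = 0.0673), and without day 4 replicate 1 it was 0.45 (adjusted p = 0.0768). The higher signal of Notch1 on this array stood beside its high 3′ to 5′ ratios, and their part in it was not tested.

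Notch2, a receptor needed for kidney and heart formation in the mouse, read 752, 826 and 872 at day 4 and 564, 857 and 809 at day 3 on probe set 1455556_at. The days overlapped, and day 3 replicate 1 was lower than the other 5 arrays. The change was 0.16 ± 0.15 (95% interval -0.18 to 0.49; limma adjusted p = 0.493), and without day 3 replicate 1 it was -0.03. The other probe set, 1451889_at, read 20.4, 3.38 and 6.94 at day 4 and 23.3, 8.71 and 19.2 at day 3. It was the 1 member probe set under the testing limit, with 1 of 3 day 4 arrays and 2 of 3 day 3 arrays above it, and was not tested.

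**Figure D1:**
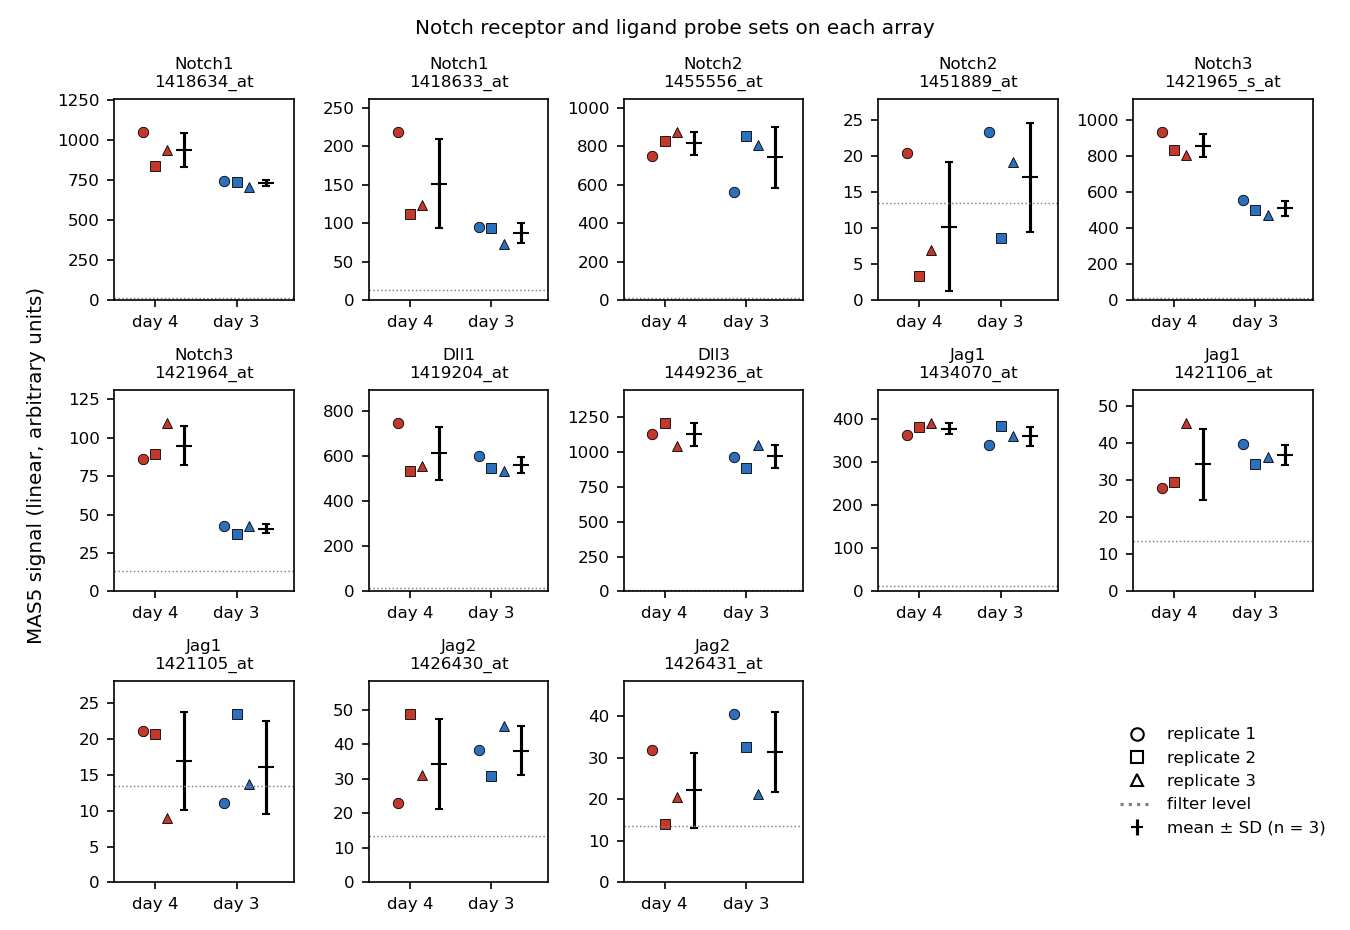
Signal of each of the 13 member probe sets on the 6 arrays, with linear vertical axes in arbitrary MAS5 units that start at 0 and differ between panels. Red points are day 4 and blue points day 3, marker shapes are replicates, black bars are mean ± SD of 3 arrays and the dotted line is the testing limit of 13.45. In both Notch1 and both Notch3 panels all red points lie above all blue ones, and in the other 9 panels the days overlap.

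The Delta-like ligands had overlapping signals on the 2 days. Dll1, the main activating ligand of the presomitic mesoderm, read 746, 533 and 559 at day 4 and 601, 546 and 535 at day 3. Day 4 replicate 1 was the highest array, and the other day 4 arrays fell within or below the day 3 range. The change was 0.11 ± 0.13 (95% interval -0.18 to 0.41; limma adjusted p = 0.578), and without that array it was -0.04. An interval that reaches 0.41 leaves room for a rise as large as the fitted change of Notch1.

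Dll3, a Delta-like protein that acts inside the cell and inhibits rather than activates the receptor in the mouse, read 1133, 1205 and 1041 at day 4 and 967, 888 and 1052 at day 3. The overlap rested on 1 array of each day, as day 4 replicate 3 lay just below day 3 replicate 3. The means were 1126 ± 82.3 at day 4 and 969 ± 81.9 at day 3. The change of 0.22 ± 0.09 had a 95% interval of 0.01 to 0.43 on its own, but did not pass the adjustment over all genes (limma adjusted p = 0.125, unadjusted p = 0.0428).

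The Jagged ligands gave no call on any of their 5 probe sets. Jag1, a ligand known from the development of bile ducts, vessels and the inner ear, read 364, 381 and 390 at day 4 and 339, 384 and 360 at day 3 on its brightest probe set, 1434070_at. The spread within each day was small, and the change was 0.07 ± 0.10 (95% interval -0.15 to 0.29; limma adjusted p = 0.65). Its dimmer probe sets both overlapped between the days. Probe set 1421106_at read 27.8, 29.6 and 45.2 at day 4 and 39.8, 34.4 and 36.3 at day 3 (change -0.14 ± 0.24; limma adjusted p = 0.74 over all probe sets). Probe set 1421105_at lay close to the testing limit, with 21.1, 20.7 and 9.02 at day 4 and 11.1, 23.4 and 13.7 at day 3. Its 95% interval ran from -1.01 to 1.11.

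Jag2, a ligand known from limb, palate and thymus development in the mouse, was dim on both of its probe sets. It read 23.0, 48.6 and 31.0 at day 4 and 38.3, 30.9 and 45.2 at day 3 on 1426430_at, a change of -0.21 ± 0.30 (95% interval -0.88 to 0.47; limma adjusted p = 0.662). On 1426431_at it read 31.9, 14.1 and 20.5 at day 4 and 40.4, 32.4 and 21.2 at day 3, a change of -0.53 ± 0.37 (95% interval -1.36 to 0.31; limma adjusted p = 0.364 over all probe sets). Arrays of the same day differed by more than the means of the days on both probe sets, and both 95% intervals include falls and rises.

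**Figure D2:**
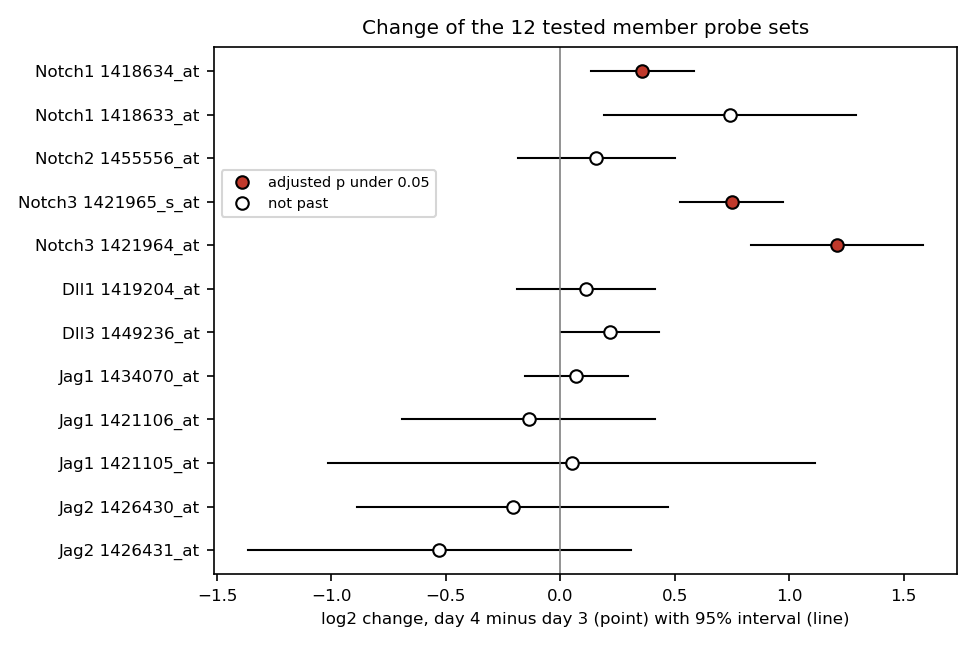
Log2 change, day 4 minus day 3, of the 12 tested member probe sets (points) with 95% intervals (lines), from the limma fit of every probe set. Red points passed an adjusted p of 0.05: both Notch3 probe sets and the brighter one of Notch1. The intervals widen for the dim Jag1 and Jag2 probe sets.

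Counted over the set, 2 of the 7 genes were called, both higher at day 4, against 11.5% of all 12285 genes tested that were called higher and 22.2% called in either direction. The arrays of the days did not overlap in 2 of the 7 genes, again with day 4 higher, against 20.7% of all genes. Of the 13 probe sets, 12 were tested and 3 were called, all higher, against 9.96% of 27026 probe sets called higher and 17.7% called in either direction. Day 4 lay wholly above day 3 in 4 of the 12, against 20.8% of all probe sets. The median change of the 7 genes was 0.16, against -0.01 over all genes tested. Of the receptor genes 2 of 3 were called and of the ligand genes 0 of 4, a difference between the groups that was not tested. With so few members, these shares are counts of named genes and say nothing on the set as a whole.

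**Figure D3:**
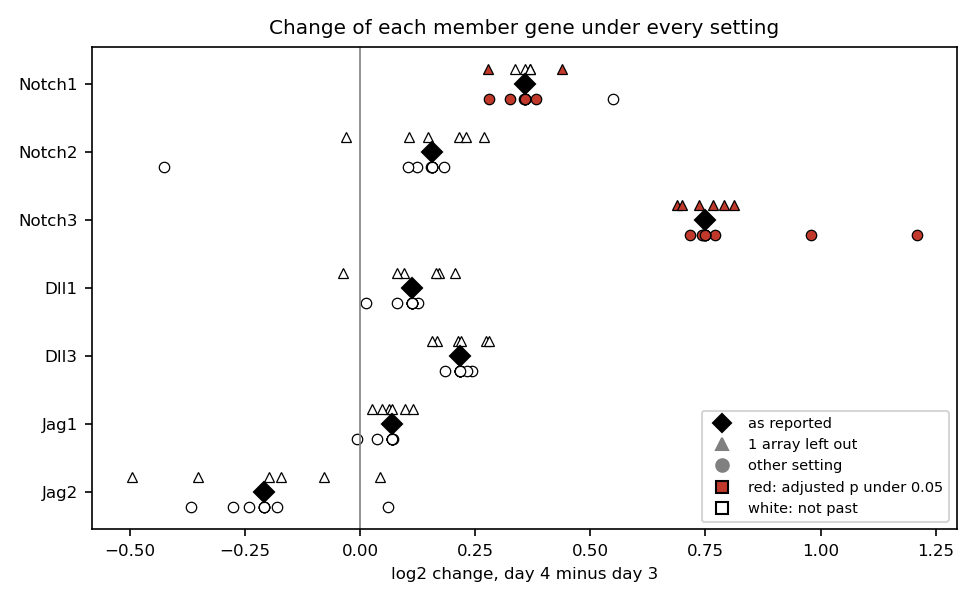
Log2 change, day 4 minus day 3, of each member gene as reported (black diamonds), with 1 array left out (triangles above) and under the other settings (circles below). Red symbols passed an adjusted p of 0.05. Notch3 stayed between 0.69 and 1.21 and passed in all 16 alternatives, Notch1 passed in 10 of 16, and the other 5 genes passed in none.

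By Pearson correlation of log2 signal over the 6 arrays, the genes most like Notch3, the member with the smallest p, were Gbp8 (r = 0.998, change 1.31), Mrpl24 (r = 0.998, change 0.69) and Rev1 (r = 0.997, change 0.82). All 12284 other tested genes were compared. The arrays share 2 days only, so any gene that differs cleanly between them correlates with Notch3, and 544 genes had r above 0.95.

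The rest of the pathway was followed through 70 further genes grouped by role. Of these, 65 were on the array under a single symbol and 58 passed the testing limit. At day 4, 11 were higher, 4 were lower and 43 did not pass, with a median change of 0.09. The 15 called are 25.9% of the 58, against 22.2% of all genes tested, of which 11.5% were called higher and 10.7% lower. The counts by role below stand against these same shares, and no role was tested as a group. Without day 4 replicate 1 the counts were 12 higher and 4 lower.

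Of the other receptors and ligands, 0 of 4 tested genes passed by limma, and 2 of 4 had an unadjusted p under 0.05. At least 22.2% of all genes tested had such a p, and a count over 4 genes is too small to set against that share. Notch4, a receptor of the endothelium, read 14.4, 22.2 and 14.6 at day 4 and 23.8, 24.97 and 34.6 at day 3 (change -0.71 ± 0.32; limma adjusted p = 0.137). Dll4, an endothelial ligand, read 27.1, 21.8 and 13.0 at day 4 and 41.2, 32.9 and 26.9 at day 3 (change -0.75 ± 0.33; limma adjusted p = 0.137). Both were dim on these probe sets, with lower means at day 4. The other tested probe set of each had a change of the opposite sign that did not pass, at 0.48 ± 0.43 for Notch4 and 0.36 ± 0.63 for Dll4 (limma adjusted p = 0.481 and 0.735 over all probe sets). Of the 3 endothelial markers tested, Kdr was higher at day 4, Sox17 was lower, and Cdh5 had a change of -0.78 ± 0.40 that did not pass. The difference between the change of these genes and that of Notch3 was not tested.

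Enzymes that act on ligands and receptors changed in a few members. Mib2, a ubiquitin ligase that drives ligand endocytosis, rose to 126 ± 17.5 at day 4, against 75.7 ± 12.1 at day 3 (change 0.74 ± 0.17; limma adjusted p = 0.0116, and 0.0527 without day 3 replicate 3). Its relative Mib1, the ligase needed for Notch signalling in the mouse embryo, read 958, 1337 and 1391 at day 4 and 931, 1138 and 1074 at day 3 (change 0.22 ± 0.14; limma adjusted p = 0.311). Mib1 passed without day 4 replicate 1, its lowest day 4 array (change 0.39, limma adjusted p = 0.00769). Its other 2 probe sets did not pass, at 0.01 ± 0.17 and -0.38 ± 0.19 (limma adjusted p = 0.971 and 0.19 over all probe sets). On the last of these, 1451818_at, every day 4 array lay below every day 3 array. Of the 5 tested glycosylation genes 1 was higher. Eogt, which adds a sugar to the extracellular repeats, rose by 0.34 ± 0.10 (limma adjusted p = 0.0419), a call lost in 10 of 16 alternatives, 5 of them with an array other than day 4 replicate 1 left out (limma adjusted p 0.0568 to 0.122). The other Eogt probe sets had changes of the same sign that did not pass (0.27 ± 0.15 and 0.26 ± 0.18). Pofut1, which adds the fucose that ligand binding needs, had a change of 0.26 ± 0.13 (limma adjusted p = 0.196). The other 2 Pofut1 probe sets had changes of the opposite sign that did not pass (-0.88 ± 0.63 and -0.21 ± 0.32). The fringe enzyme Lfng varied too widely within day 3 (3.53, 27.1 and 43.0) for a change to be detected.

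Of 8 tested genes for receptor cleavage, 2 were higher. Adam10, the metalloprotease of the first cut, read 1083, 1166 and 1208 at day 4 and 901, 954 and 932 at day 3, with no overlap (change 0.31 ± 0.08; limma adjusted p = 0.02). With 1 array left out, 5 of 6 fits did not pass (limma adjusted p up to 0.0767), the exception being the fit without day 4 replicate 1. The other tested probe set of Adam10 did not pass, at 0.42 ± 0.32 (limma adjusted p = 0.412 over all probe sets). Aph1a, a subunit of gamma-secretase, rose by 0.52 ± 0.09 (limma adjusted p = 0.00381). Of its other probe sets 1 was also called higher, at 0.77 ± 0.17, and the other had a change of -0.48 ± 0.25 that did not pass (limma adjusted p = 0.0138 and 0.228 over all probe sets).

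In the nuclear complex 2 of 7 tested genes were higher. Rbpj, the DNA-binding partner of every Notch receptor, read 842, 919 and 918 at day 4 and 588, 559 and 582 at day 3, with all day 4 arrays above all day 3 arrays. The change was 0.63 ± 0.08 (limma adjusted p = 0.000847). Its other 2 probe sets were dimmer and did not pass (0.07 ± 0.21 and 0.17 ± 0.15), and with the mean over all 3 the change was 0.29 (limma adjusted p = 0.114). Snw1, a splicing factor that also binds the complex, rose by 0.41 ± 0.09 (limma adjusted p = 0.00788). The other probe sets of Snw1 did not pass, at 0.26 ± 0.12 and 0.12 ± 0.23 (limma adjusted p = 0.173 and 0.768 over all probe sets). Among 10 corepressor genes Hdac1, a histone deacetylase, fell by 0.45 on the log2 scale and Cir1 fell by 0.51, while Kdm5a, a histone demethylase, rose by 0.58 ± 0.12 (limma adjusted p = 0.004, 0.0434 and 0.00747). The other 4 tested probe sets of Kdm5a had changes of the same sign, and none was called. The Cir1 call was lost in 8 of 16 alternatives, among them the fits without day 3 replicate 2 or 3 or without day 4 replicate 2 or 3 (limma adjusted p 0.0928 to 0.166).

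Of 12 genes of receptor trafficking and turnover, Dtx3, a Deltex-family ubiquitin ligase, rose by 0.92 ± 0.17 (limma adjusted p = 0.00482). Dtx3l fell by 0.72 and Nedd4l, a ubiquitin ligase, fell by 0.93 on the log2 scale (limma adjusted p = 0.00441 and 0.00711). Another probe set of Nedd4l had a change of 0.20 ± 0.21 and did not pass. Of the 6 tested target genes 3 were called higher, against 11.5% of all genes tested. These were Mesp2, which sets segment borders, Hey1 and the feedback inhibitor Nrarp, with changes of 1.65 ± 0.12, 1.03 ± 0.16 and 0.37 ± 0.10. Nrarp did not pass when day 3 replicate 2, day 3 replicate 3 or day 4 replicate 2 was omitted (limma adjusted p 0.0941 to 0.112), and its other probe set had a change of -0.13 ± 0.22. The clock gene Hes7 read 41.7, 41.7 and 36.6 at day 4 and 28.5, 24.4 and 39.9 at day 3, which overlapped and did not pass (limma adjusted p = 0.271). Hes1 and Heyl did not pass either, with changes of 0.11 ± 0.09 and -0.34 ± 0.29 (limma adjusted p = 0.408 and 0.433). Hes5 and Hey2 averaged under the testing limit and were not tested. Hey2 was close to the limit and did not overlap between the days, with 14.2, 14.5 and 16.9 at day 4 and 13.8, 10.1 and 12.1 at day 3.

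**Figure D4:**
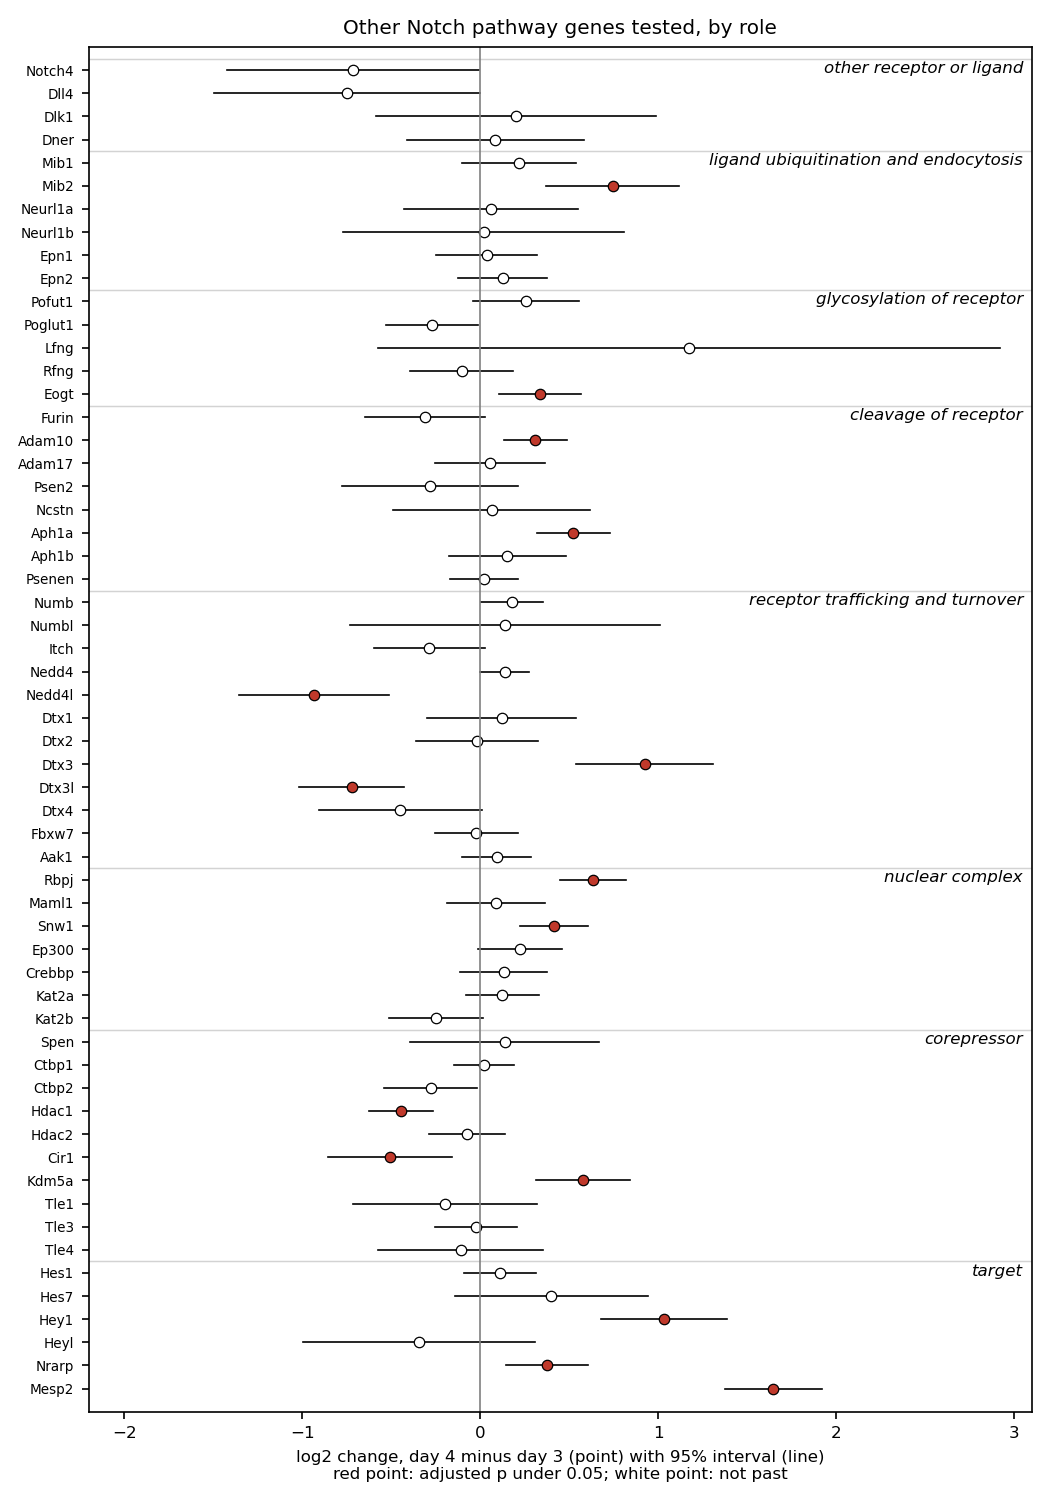
Log2 change, day 4 minus day 3, of the 58 other Notch pathway genes tested, with 95% intervals, grouped by role from top to bottom. Red points passed an adjusted p of 0.05 over all genes, 11 on the higher and 4 on the lower side. Calls are spread over the roles, and the other receptors and ligands hold none.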

How the data were processed

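Total RNA of sorted cells was amplified in 2 cycles into biotin-labelled cRNA and hybridised to 1 array per sample, per the labels' protocols. The labels name Trizol and an RNeasy kit without saying which sample had which, so extraction was not tested as a batch. The deposited values were linear signal intensities, made with MAS5 per the submitters' processing notes; the version, the scaling target, the detection calls and the probe positions were not given in the sources used here. Arrays agreed in trimmed mean (middle 96% of probe sets) within 1.09%, under the 5% allowed, so no scaling was added. Their number limits the precision.

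Probe sets were named from the platform annotation. Of 45101, 34958 had 1 symbol, 932 several and 9211 none listed; 34754 matched GRCm38.p6 RefSeq genes by Entrez identifier. Control probe sets (64) served for quality only.

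Log2 signal was fitted with day as the only term in R 4.3.3 with limma 3.58.1 (lmFit, eBayes with trend, 2-sided, Benjamini-Hochberg, threshold 0.05), with each of 18193 genes represented by its brightest probe set and 12285 above the 40th percentile tested. A second fit took all 27026 probe sets above that level, named or not. Probe sets of 1 gene are not replicates. The fit was tested on simulated data.

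The member genes, the pathway and marker lists and the tests were chosen with earlier results of these data known. Named were all members, up to 6 called genes per pathway role by p, a few fixed pathway genes, and the 3 genes most correlated with the member of smallest p. Correlations of same-numbered arrays' deviations from their day means were 0.0668, 0.011 and -0.00051, so the numbers were not taken as pairs. The alternatives were an offset of 4.14, quantile normalization, median centring, no filter or the 60th percentile, the mean over probe sets, leaving out suffixed probe sets, no trend, array weights, a replicate block and leaving out each array.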

Additional observations from a re-analysis of the deposited data

How the results depend on the processing

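Notch3 kept its rise and its call in all 16 alternatives (change 0.688 to 1.21, adjusted p up to 0.009), and its other probe set did so in the 14 that apply to it. Notch1 kept its direction throughout (0.277 to 0.549) and lost its call in 6, among them the mean over its probe sets (adjusted p = 0.0533) and the fit without trend (0.0755). The number of member genes called was therefore 1 with the mean over probe sets and 1 without trend, and 1 to 2 with 1 array left out; that of member probe sets was 2 to 3 with 1 array left out. Over all genes the count was 1796 with the mean over probe sets, 4312 with array weights and 1596 to 3524 with 1 array left out, and over the other pathway genes it was 8 with the mean over probe sets and 10 to 16 with 1 array left out. The lowest counts over all genes came without day 3 replicate 3 (1596) and day 3 replicate 2 (1813). Sign turned, without passing, for Notch2 (-0.425 with the mean over probe sets, -0.0307 to 0.27 with 1 array left out, lowest without day 3 replicate 1), Jag1 (-0.00649 with the mean, and on 1421105_at -0.159 and -0.145 when day 4 replicate 1 or 2 was left out and -0.181 and -0.0291 when day 3 replicate 1 or 3 was, up to 0.453), Dll1 (-0.0369 without day 4 replicate 1, up to 0.206 without another array), Jag2 (0.0602 with array weights, 0.043 without day 4 replicate 1, down to -0.496 without another array, and 0.0421 on 1426430_at with weights), Mib1 (-0.0522) and Pofut1 (-0.28, both with the mean) and Nedd4l (0.203 without suffixed probe sets). The cause was not tested. Rbpj, Aph1a, Snw1 and Kdm5a lost their calls with the mean over probe sets (adjusted p 0.0961 to 0.213). In the fit of every probe set, Notch1 1418634_at did not pass with median centring (0.0596). With the replicate block, 2 member genes and 4 member probe sets passed, the added one being 1418633_at of Notch1 (adjusted p = 0.0364), which also passed with array weights (0.0357). The wide scatter of dim signals limits Jag2 and the dimmer probe sets of Jag1 and Notch2.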
